A study of Mus musculus with 2 samples.

Results

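The enzymes that write DNA methylation, the proteins that read it and an enzyme that removes it were followed in mouse implantation sites, pieces of the pregnant uterus that each contain a conceptus and its surrounding decidua. The 9 genes are Dnmt1, Uhrf1, Dnmt3a, Dnmt3b, Dnmt3l, Tet1, Mbd1, Mbd2 and Mbd3. They were chosen by name, and every probe set that the platform annotation gives to one of these symbols alone was taken, which gave 22 probe sets for 9 of the 12393 genes on the array. RNA from sites of Cbs null females was hybridised to 1 Affymetrix array and RNA from sites of control females to 1 array. Cbs null females are homozygous for loss of cystathionine beta-synthase, the enzyme that joins homocysteine to serine. All females were 4 months old, of mixed C57BL/6J and OLA129 background, and at day 8 of pregnancy. The sources used here do not give the alleles of the control females, the genotype of the conceptus or any pooling of animals.

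DNA methylation is the transfer of a methyl group from S-adenosylmethionine to cytosine, mostly at CpG sites. The reaction leaves S-adenosylhomocysteine, which is hydrolysed to homocysteine and which inhibits methyltransferases when it accumulates, so the methylation machinery lies next to the pathway in which Cbs works. Dnmt3a and Dnmt3b place new methyl groups and Dnmt3l, a relative without catalytic activity, assists them. Dnmt1 copies the pattern at replication, guided by Uhrf1, which binds hemimethylated DNA. Tet1 oxidises methylcytosine, and proteins of the methyl-CpG binding domain family carry the mark to corepressors.

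Each genotype had 1 array, so no difference could be checked against replicates or tested, and each one describes these 2 arrays. Signals are intensities in arbitrary units as deposited, each probe set is compared only with itself, and log2 ratios are Cbs null over control. Whole tissue was profiled, so fewer cells of a type and less RNA per cell cannot be told apart. A probe set was kept when the mean of its 2 signals reached 70.5, the median over the array, and signals under 14.3, percentile 25 of both arrays, are treated here as unmeasured. The trimmed mean signal was 200.08 on both arrays. Cbs, the targeted gene, read 23.8 and 22.3 in its 2 probe sets in Cbs null sites, against 30.3 and 29.9 in control sites, under the filter on both arrays. Where the deletion lies in the gene is not stated in the labels, and these signals are no check of genotype.

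None of the writers and readers differed by as much as 1.5-fold between Cbs null and control sites where it was measurable. Tet1, the only eraser among the members, was not measured. Of the 22 probe sets, 10 passed the filter, and all 10 had both signals above it, so none passed through 1 array alone. Their log2 ratios ran from -0.18 to 0.42, and 0 of 10 were 1.5-fold apart, a log2 ratio of 0.58 in either direction. Among all kept probe sets with a single gene, 4.25% were at least 1.5-fold apart, so a count of 0 in 10 is close to the background. The 6 genes measured were Dnmt1, Uhrf1, Dnmt3a, Mbd1, Mbd2 and Mbd3. Their median log2 ratio was -0.09, beside 0.02 for all 7079 kept genes, of which 95% lay between -0.48 and 0.58. Dnmt3b, Dnmt3l and Tet1 had no probe set above the filter.

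**Figure D1:**
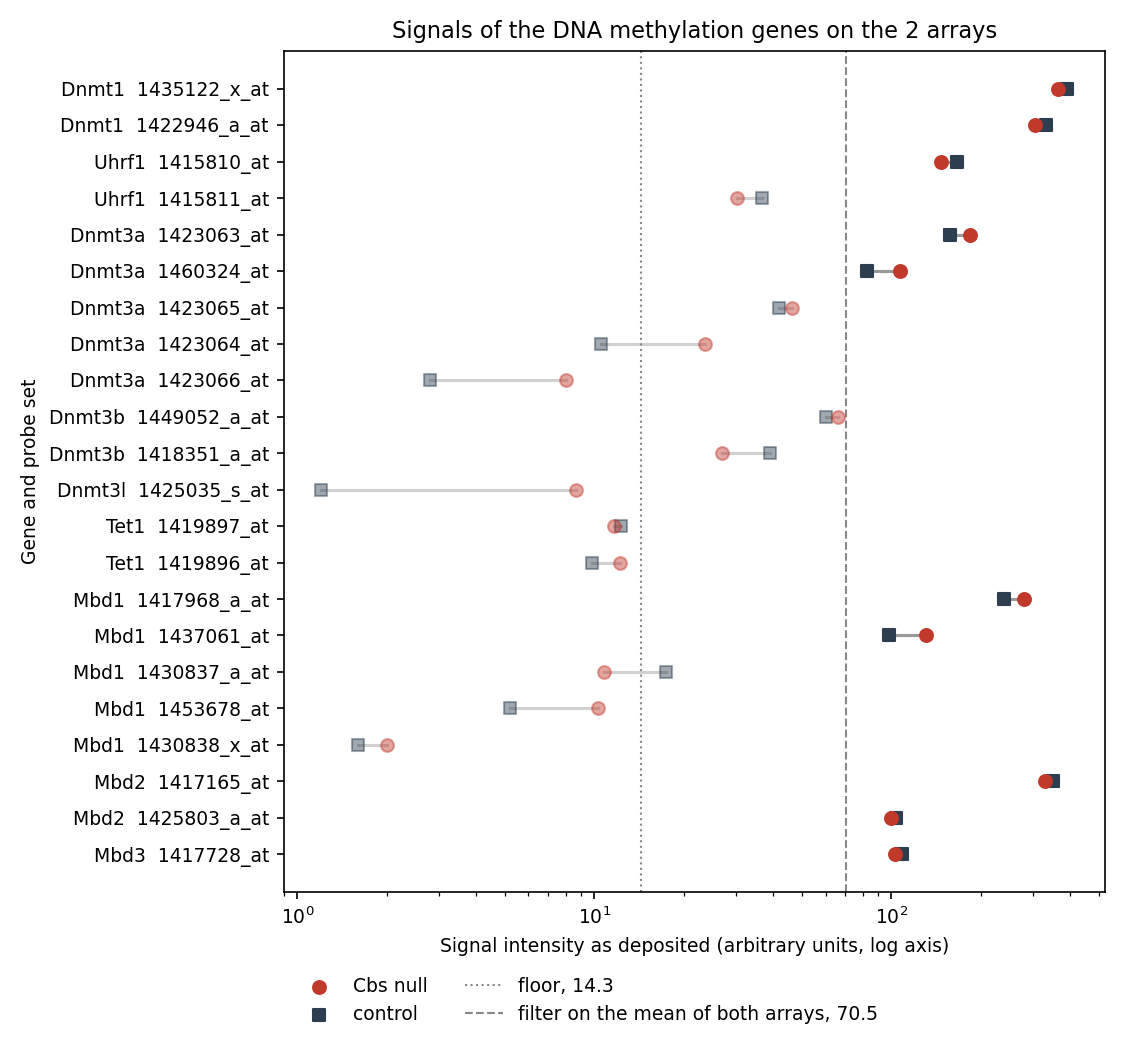
Signal of each of the 22 probe sets in Cbs null sites (red circles) and control sites (dark squares), on a log axis in arbitrary units. Solid symbols mark the 10 probe sets kept, pale symbols the 12 that were not, and the vertical lines mark 14.3 and 70.5. Paired symbols lie close together on the right of the dashed line, and the wide gaps lie among signals near or under 14.3.

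The maintenance pair read slightly lower in Cbs null sites. Dnmt1, the enzyme that methylates the new strand after replication, read 364.9 in Cbs null and 391.3 in control in 1 probe set, a log2 ratio of -0.10. Its other probe set read 303.2 in Cbs null and 331.7 in control, a log2 ratio of -0.13. The first of these may match more than 1 transcript, and the pair differed by less than 1.1-fold from control in each case. Uhrf1, the protein that brings Dnmt1 to hemimethylated CpG sites, read 146.4 in Cbs null and 166.2 in control, a log2 ratio of -0.18. That was the lowest ratio of the 10 kept probe sets, and 15.3% of kept genes had a lower one. A second Uhrf1 probe set, not kept, read 30.2 in Cbs null and 36.8 in control. All 4 probe sets of the pair were thus lower on the Cbs null array, by amounts well inside the range that holds 95% of genes.

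Dnmt3a, the de novo methyltransferase of most somatic tissues, read higher in Cbs null sites in the 3 of its 5 probe sets that were measured on both arrays. The kept probe sets read 184.2 in Cbs null against 158.0 in control, and 107.1 in Cbs null against 82.7 in control. These are log2 ratios of 0.22 and 0.37, or 1.17-fold and 1.30-fold. Another read 46.1 in Cbs null and 41.9 in control, under the filter. The remaining pair read 23.5 and 8.0 in Cbs null, against 10.5 and 2.8 in control, with 3 of these 4 signals under 14.3, so no fold is given for them. The kept ratios lay at percentiles 82.5 and 92.4 of kept probe sets.

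The other de novo genes were close to the limit of measurement. Dnmt3b, the partner enzyme that is prominent in the early embryo, read 66.2 in Cbs null and 60.3 in control in 1 probe set, just under the filter. Its second probe set read 26.8 in Cbs null and 38.9 in control, so its probe sets went in opposite directions, with log2 ratios of 0.13 and -0.54. Dnmt3l, the cofactor of germ cells, read 8.7 in Cbs null and 1.2 in control, both under 14.3. Tet1, which starts removal of the mark by oxidising it, read 11.6 and 12.2 in Cbs null, against 12.3 and 9.8 in control. None of the 3 probe sets of Dnmt3l and Tet1 reached 14.3 on either array, so a difference in these genes was not detectable.

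The readers split by gene. Mbd1, a repressor that binds methylated and, through its CXXC domains, unmethylated CpG, read 279.0 in Cbs null and 239.3 in control, a log2 ratio of 0.22. Its second kept probe set read 131.2 in Cbs null and 98.2 in control, a log2 ratio of 0.42 or 1.34-fold, the highest of the 10 kept probe sets. Of its 3 other probe sets, all with at least 1 signal under 14.3, the values were 10.8, 10.3 and 2.0 in Cbs null and 17.4, 5.2 and 1.6 in control. Mbd1 was therefore measured on both arrays in 2 of its 5 probe sets, and both were higher in Cbs null sites.

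Mbd2 and Mbd3, which join the NuRD corepressor as alternative subunits, differed little. Mbd2, which binds methylated CpG, read 328.5 in Cbs null and 348.9 in control, and 99.4 in Cbs null and 103.6 in control in its second probe set, with log2 ratios of -0.09 and -0.06. Mbd3, whose mammalian form binds methylated CpG weakly, had a single probe set at 102.5 in Cbs null and 108.9 in control, a log2 ratio of -0.09. All 3 probe sets were lower on the Cbs null array by under 1.1-fold.

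Probe sets of the same gene are the repeated measure that these arrays offer, although they share the RNA and may share transcript. In the 4 members with 2 kept probe sets (Dnmt1, Dnmt3a, Mbd1 and Mbd2) both had the same sign in 4 of 4. Over the array the 2 brightest probe sets of a gene had the same sign in 62.0% of 2284 genes. The ratios within a member lay 0.03 to 0.20 apart, where the difference between such a pair had an SD of 0.30 over the array. In each of the 6 measured genes the log2 ratio of the brightest probe set was smaller than 0.30. The second kept probe sets of Dnmt3a and Mbd1, at 0.37 and 0.42, were above it. That SD describes a difference between 2 probe sets, not the spread of a single ratio. By brightest probe set, 4 of the 6 had a ratio below 0 (Dnmt1, Uhrf1, Mbd2 and Mbd3), beside 44.9% of all kept genes.

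**Figure D2:**
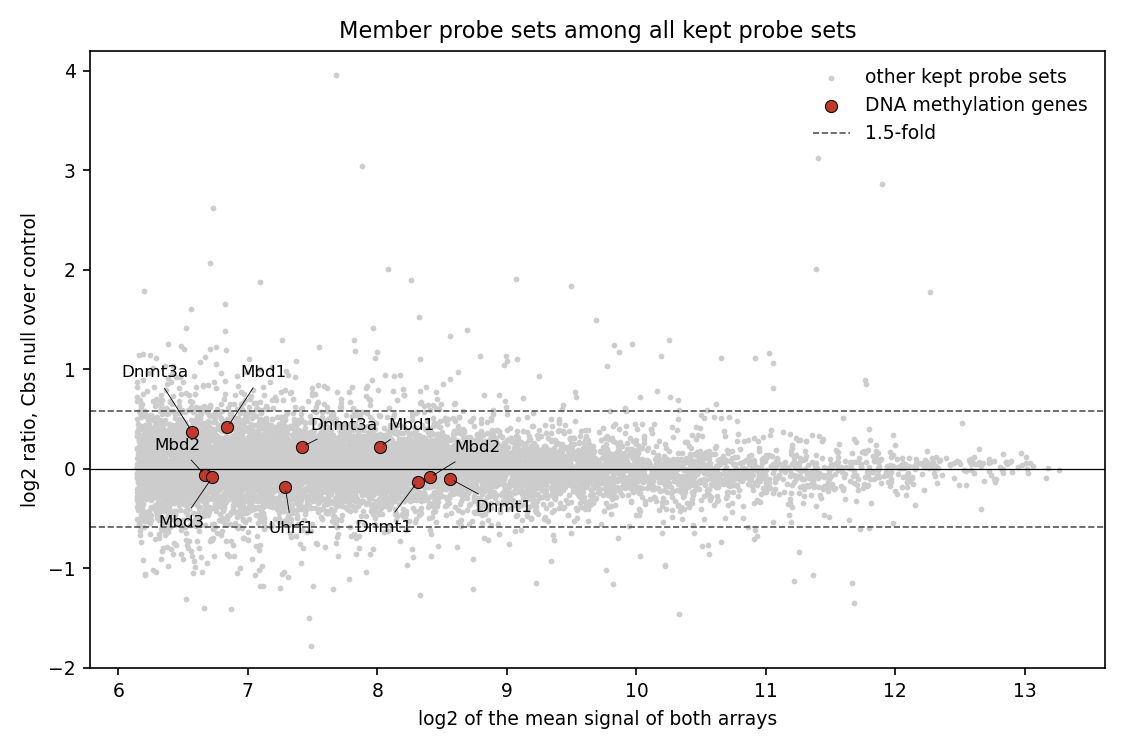
Log2 ratio of Cbs null over control against the log2 mean signal for all kept probe sets with a single gene (grey) and the 10 kept member probe sets (red, labelled by gene). Dashed lines mark 1.5-fold in either direction. All 10 member probe sets lie between the dashed lines, with Dnmt3a and Mbd1 above 0 and Dnmt1, Uhrf1, Mbd2 and Mbd3 below 0.

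A wider list of 75 genes held partners and functional relatives in 6 roles, of which 57 were on the array with a single symbol and 38 passed the filter. None of the 38 was 1.5-fold apart, against 3.79% of all kept genes, a count close to the background. Their log2 ratios ran from -0.41 to 0.55 with a median of -0.02, and 22 were below 0 and 16 above.

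In the steps that follow oxidation, where modified bases are cut out and repaired, 0 of 7 measured genes was 1.5-fold higher and 0 lower. Apex1, the endonuclease that opens abasic sites, read 535.2 in Cbs null and 670.1 in control, a log2 ratio of -0.32, and Parp1, a sensor of DNA breaks, had -0.02. Mbd4, the glycosylase of the same binding domain family that removes thymine from deaminated methyl-CpG, read 127.2 in Cbs null and 86.8 in control. Its log2 ratio of 0.55, from a single probe set, was the highest of the 38 and just inside 1.5-fold. Mbd4 is named after its value was seen.

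Of the partners of maintenance methylation, 0 of 7 measured were past 1.5-fold in either direction, and their median log2 ratio was -0.03. Pcna, the replication clamp that holds Dnmt1 at the fork, read 1550.1 in Cbs null and 1645.3 in control, a log2 ratio of -0.09. Usp7, a deubiquitinase that binds Dnmt1 and Uhrf1, read 489.5 in Cbs null and 489.7 in control. Of other CpG-binding proteins 4 were measured, none past 1.5-fold. Cxxc1, which recruits histone H3 lysine 4 methyltransferase to unmethylated CpG, had a log2 ratio of 0.24, and Kdm2b, a histone demethylase with a CXXC domain, 0.11.

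The NuRD complex, which pairs nucleosome remodelling with histone deacetylation, had 11 of its 12 listed genes measured and a median log2 ratio of -0.02, with 0 past 1.5-fold. The histone chaperones Rbbp7 and Rbbp4 had 0.16 and 0.05. The deacetylase Hdac1, named after its value was seen, was the lowest of the 38 genes, at 511.4 in Cbs null and 680.8 in control, a log2 ratio of -0.41 from a single probe set. Its paralog Hdac2 had -0.14. Of the histone writers and silencing partners 9 were measured and 0 were past 1.5-fold. Trim28, the corepressor of zinc finger proteins that keeps imprints methylated, had 0.19, and Cbx5, heterochromatin protein 1 alpha, had -0.03.

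Genes that promoter methylation keeps silent in adult somatic tissue had little signal on either array. Of 14 such germline and pluripotency genes 11 were on the array, in 14 probe sets, and 0 passed the filter. Their signals ran from 0.3 to 33.4 in Cbs null and from 0.4 to 41.5 in control. The highest was that of Rhox5, an X-linked homeobox gene of the reproductive tract, at 33.4 in Cbs null and 41.5 in control. In 8 of the 11 genes, Dazl and Nanog among them, every signal was under 14.3. Methylation itself was not measured, and in those 8 genes a difference was not detectable.

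**Figure D3:**
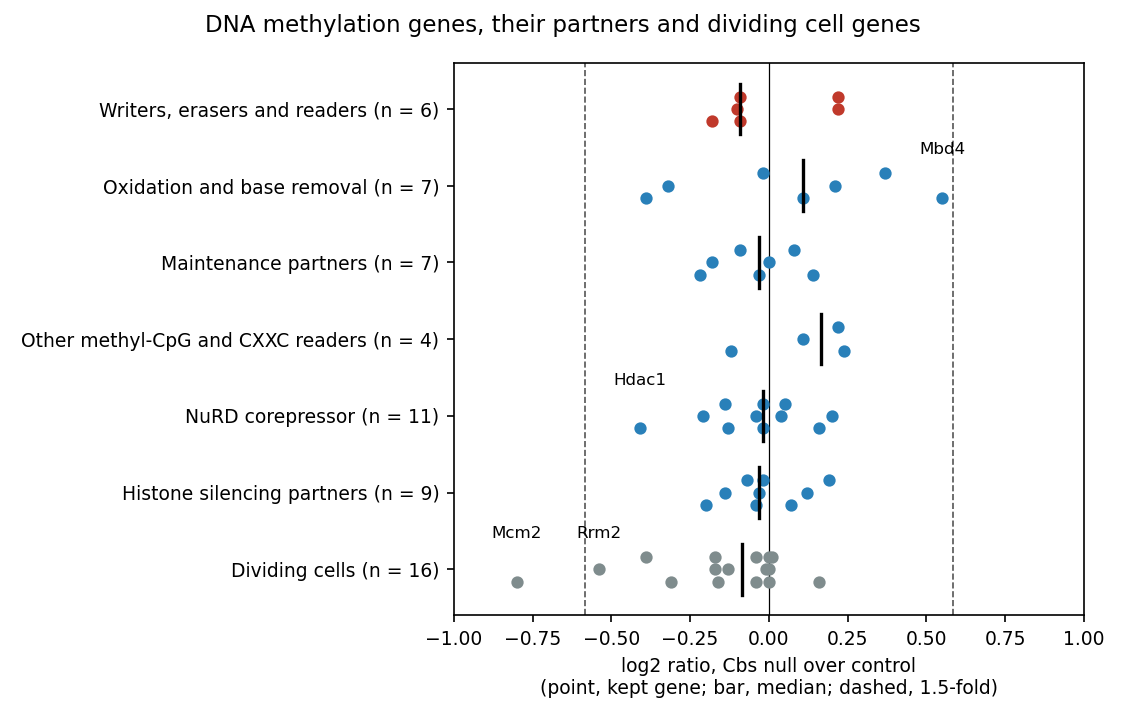
Log2 ratio of Cbs null over control for each kept gene by its brightest probe set. Shown are the 6 measured writers and readers (red), 5 groups of partner genes (blue) and genes of dividing cells (grey). Black bars are medians and dashed lines mark 1.5-fold. Mcm2 lies past a dashed line, Mbd4 and Rrm2 lie just inside one, and the medians of the 7 groups lie between -0.09 and 0.16.

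Dnmt1 and Uhrf1 are made mainly in dividing cells, and some genes of such cells read lower on the same array. Of 18 listed genes of replication and mitosis 16 were measured, with a median log2 ratio of -0.09. In 8 of them the log2 ratio was below -0.05, in 1 it was above 0.05, and 7 lay within 0.05 of 0. Over the 17 on the array the summed signal was 9590.3 in Cbs null and 11636.2 in control, and without Rrm2, the small subunit of ribonucleotide reductase, it was 6298.7 in Cbs null and 6845.8 in control. None of the 17 had all its signals under 14.3. Of the 16 measured genes 1 was at least 1.5-fold lower and 0 were higher, beside 1.33% and 2.46% of all kept genes. That gene was Mcm2, a subunit of the replicative helicase, at -0.80, but its other probe set had 0.22. Rrm2 was lower in all 3 of its probe sets, with log2 ratios of -0.54, -0.67 and -0.87. Mki67, the proliferation marker, had -0.17 and Top2a, which untangles replicated DNA, -0.16. Birc5, which guards chromosome segregation, and the mitotic kinase Cdk1 had 0.00 and 0.01, and Mcm7, another helicase subunit, had 0.16. The part of dividing cells in the values of Dnmt1 and Uhrf1 was not tested.

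Dnmt1 and Uhrf1 also share a sequence near an annotated start. The motif of E2F factors, which switch on genes of S phase, was searched on both strands as TTTCCCGC, TTTCGCGC, TTTGCCGC and TTTGGCGC in the 250 bases before each start in RefSeq (GRCm38.p6). The spellings share no position in the windows shown. Windows were searched for 7 of the 9 members (14 windows). Windows on the chromosome of Mbd1 and Mbd2 were left out for the members, but not for all genes. Whether Mbd1 or Mbd2 holds the motif is therefore not known here. The motif was in 1 of the windows of Dnmt1 and 1 of Uhrf1, both times as TTTCGCGC. Of all 32851 windows 1.86% held the motif and 0.256% held TTTCGCGC. That spelling itself contains CpG, and the matching windows were rich in it. They held 26 CpG in Dnmt1 and 30 in Uhrf1, beside a median of 6.0 over all windows. The shares were not taken among windows of like CpG content, so they do not show how rare such a match is there. Counted by gene, 4 of 16 dividing cell genes and 2.16% of all 27025 genes held the motif in at least 1 window. Among the members searched these were the only matches, in 2 of 14 windows and 2 of 7 genes, and both genes act in the maintenance step. Each site is shown in 30 bases, 5′ to 3′ on the gene's strand with the motif in capitals (in Dnmt1 it is on the opposite strand).
Dnmt1, chr9:20952824-20952853, minus strand: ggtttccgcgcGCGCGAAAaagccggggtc
Uhrf1, chr17:56304117-56304146, plus strand: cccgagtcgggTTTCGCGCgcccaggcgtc
The motif began 219 bases before the start in Dnmt1 and 185 bases before it in Uhrf1. The window of Dnmt1 belongs to the most downstream of its 3 listed starts. The search was chosen after the values were seen, and a match is a description of the sequence and not a site of binding.

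Summed markers of several cell types of the site also differed between the arrays. Over all kept genes 1.33% were at least 1.5-fold lower and 2.46% higher. Most markers of uterine natural killer cells were lower, with 9 of 10 measured genes at least 1.5-fold lower. Their summed signal was 8619.4 in Cbs null and 18810.0 in control. The exception was the receptor Klrk1, with a log2 ratio of 0.05. The receptor Ncr1, under the filter, read 67.5 in Cbs null and 56.4 in control. Epithelial markers summed to 16366.0 in Cbs null and 4627.8 in control, with 3 of 6 genes at least 1.5-fold higher. Without the gland proteinases Prss28 and Prss29 they summed to 2053.6 in Cbs null and 1488.8 in control, and Cdh1, E-cadherin, had a log2 ratio of -0.02. All 5 genes of yolk sac and embryonic blood were at least 1.5-fold higher, with sums of 5907.0 and 2964.0 in Cbs null and control. The 5 trophoblast markers on the array summed to 909.8 in Cbs null and 399.6 in control. Most of that was Tpbpa, at 598.7 in Cbs null and 228.1 in control. Only 3 of the 5 were measured, each at least 1.5-fold higher. Under the filter, Hand1 read 19.6 in Cbs null and 21.5 in control, and Ascl2 read 24.4 on both arrays. Macrophage markers summed to 4238.2 in Cbs null and 3103.2 in control, with 2 of 6 genes, Cd68 and H2-Ab1, at least 1.5-fold higher. The largest part of the sum was H2-Aa, at 1833.5 in Cbs null and 1275.8 in control. Adgre1 had a log2 ratio of 0.00 and Csf1r 0.21. Genes of the decidua, the uterine stroma transformed by pregnancy, had a median log2 ratio of 0.03 over 8 measured genes and sums of 8942.5 in Cbs null and 9540.0 in control. Of these 8, Bmp2 and Tdo2 were at least 1.5-fold lower, with log2 ratios of -1.21 and -0.84, and 0 were 1.5-fold higher. By sign 3 were below 0 and 5 above. Prl8a2, the brightest, read 3633.6 in Cbs null and 2542.7 in control, a log2 ratio of 0.52. Of the markers of the embryo proper 3 were on the array, each with signals under 14.3 in both genotypes. The part of these cell types in the values of Dnmt3a, Mbd1 and the other members was not tested.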

How the data were processed

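Total RNA of implantation sites was labelled with biotin from 2 microg and hybridised to Affymetrix arrays, per the labels' protocols. The deposited values are linear signal intensity for each probe set. The authors used GCOS 1.4 to make them, per the submitters' processing notes. Its algorithm, a genome build and detection calls: not given in the sources used here. Trimmed means (2% at each end) were equal, so values were not rescaled.

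Of 22690 probe sets, 64 controls were set aside. Symbols came from the platform annotation, and of 20380 probe sets with 1 symbol 20351 matched RefSeq (GRCm38.p6) by identifier. Signals under the floor of 14.3 (percentile 25) were raised to it, probe sets with a mean signal of at least 70.5 were kept (11315 in all, 10406 with 1 gene), and a gene was represented by its brightest kept probe set. The number of arrays limits the precision.

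The rule for names takes all 9 members and, from each role of the wider list, genes 1.5-fold apart and the 2 brightest. Likeness between genes was not computed from 2 arrays. Members and lists were chosen with earlier results of these data known. Alternatives covered scaling, floor, pseudocount, filter and probe set choice. Scripts (Python 3.11) were tested on simulated data.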

Additional observations from a re-analysis of the deposited data

How the results depend on the processing

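The 60 values of the 10 kept member probe sets under other scalings, floors and a pseudocount of 32 kept their sign in every case and moved by at most 0.09 in log2. Those under floors at percentiles 10 and 40 could not move, because every kept member signal lay above both floors. The median log2 ratio of the measured members ran from -0.14 with each array centred on its median to -0.07 with the pseudocount. With no filter the median was 0.00 over all 9 members. These include Dnmt3l and Tet1, whose ratios the floor sets to 0. With the filter at percentile 25 and with no filter, 1 member probe set was 1.5-fold apart, of 15 and 22. It was the Dnmt3a probe set that read 23.5 in Cbs null and 10.5 in control, a control signal raised to the floor of 14.3, and 9.73% and 7.58% of all probe sets were then as far apart. Under both of these filters 1 wider gene, of 45 and 57, was 1.5-fold apart, beside 8.77% and 7.01% of all genes. It was Cbx3, at 35.6 in Cbs null and 19.2 in control. With the filter at percentile 75, which keeps 3 members, 2 had a ratio below 0. These filters change the counts by changing which probe sets are measured. Of 72 values of probe sets that were not kept, 9 moved by 0.30 or more, 6 of them under a floor at percentile 10. Signal over background limits Dnmt3b, Dnmt3l and Tet1. The marker sums without Rrm2 and without Prss28 and Prss29 were chosen after seeing the data. No paired analysis was possible because each genotype has 1 array.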
